A study of Mus musculus with 5 samples.

Results

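Imprinted genes are those expressed mainly from the copy inherited from 1 parent, and 39 of them were followed in sorted mouse mammary luminal cells, the epithelial cells that line the lumen of ducts and alveoli. The 39 were picked by name as known imprinted genes of the mouse. The rule uses no measured value, but earlier results of these data were known when they were chosen. All 39 were found among the 24319 genes of the table. By their usual parental expression, 22 are expressed from the paternal copy and 16 from the maternal copy, and Gnas depends on the transcript. The RNA-seq came from 5 libraries, of which Lum1, Lum2 and Lum3 are labelled wild type and Lum4 and Lum5 are labelled Brca1 knockout. All are from mammary tissue of a strain given as Mixed.

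In the study's mouse model, MMTV-Cre, a recombinase driven by a mammary tumor virus promoter, removes floxed Brca1 (Brca1 fl/fl) in mammary epithelium, so the deletion is limited to cells in which that promoter works. The study sorted DAPI-CD24HiCD29Lo cells from young adult females that were virgin or in mid-pregnancy, and gives no stage for a single bulk library. It describes these luminal cells as BRCA1-deficient, which differs from the labels of Lum1 to Lum3. Brca1 itself was at 1.30, 1.32 and 0.234 FPKM in Lum1, Lum2 and Lum3 and at 1.20 and 1.34 FPKM in Lum4 and Lum5, so its level does not separate the labels. Nothing states whether the libraries came from separate mice, so p-values measure the spread between these libraries, which may be technical. Values are FPKM (fragments per kilobase of transcript, scaled to the mapped fragments of each library), a level per length that can be compared between genes.

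Imprinting is set in the germ line by DNA methylation at control regions, and is kept after fertilization by proteins that recognise those regions. Imprinted genes lie in clusters where 1 control region often acts on several genes, through an insulator or through a long non-coding RNA that silences its neighbours. Many act on growth in the fetus and placenta, and several are turned down after birth. FPKM values sum both parental copies, so parental origin and loss of imprinting were not measured here.

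The libraries were of epithelial cells by their markers: all 9 epithelial and luminal markers were at 1 FPKM or more in every library, while all 7 adipocyte markers were under 1. Lum3 stands apart, with summed mature luminal markers of 671 FPKM against 35.2 to 68.2 in the others, summed milk genes of 27200 against 66800 to 88600, and proliferation markers of 60.1 against 139 to 231. By label, the mature luminal sums were 68.2, 62.8 and 671 in Lum1 to Lum3 and 35.2 and 45.6 in Lum4 and Lum5. The proliferation sums were 139, 167 and 60.1 and then 184 and 231. Neither sum overlaps between the labels, so the label cannot be told apart from these differences. Of the 7 milk genes 5 were lowest in Lum3, while Lalba, at 599 FPKM against 130 to 185, and Btn1a1, at 371 against 161 to 214, were highest there. Markers of other cells were uneven. The 9 basal markers summed to 77.1, 142, 12.6, 45.1 and 65.8 FPKM in Lum1 to Lum5, with medians of 1.42, 1.74, 0.56, 0.64 and 0.40 (log2(FPKM + 1)). The 10 fibroblast markers summed to 3.54, 115, 96.1, 4.33 and 13.3 FPKM in Lum1 to Lum5, with none at 0 in every library, the 8 endothelial markers to 3.09, 11.9, 24.9, 2.3 and 0.992, and the 9 immune markers to 30.2, 961, 259, 30.8 and 473. Most of the immune sum in Lum5 is Cd74, an antigen presentation gene, at 465 FPKM, and the other 8 summed to 7.55, 266, 54.2, 4.93 and 8.24 in Lum1 to Lum5. The study depleted lineage-positive cells and gated on CD24 and CD29 before RNA was made. No read totals are given, and the spacing of low FPKM values put the depth at about 6180000, 13000000, 30300000, 6340000 and 21400000 fragments. In bulk RNA, fewer cells of a type and less RNA per cell cannot be told apart.

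The 39 genes divided into genes that were on and genes near silence. In every library 15 of 39 (38.5%) were at 1 FPKM or more, 17 (43.6%) were below 1 FPKM in every library, and 7 crossed the limit. Over all genes these shares were 40.6% and 48.5%, so the imprinted genes were not set apart by the share that was on. No member was at 0 in all 5 libraries, beside 4967 of all 24319 genes. All genes here include 1159 microRNA rows, 1005 of them at 0 in every library, and these also count in the shares above. Magel2 and Usp29 rested on only about 1.46 and 2.77 estimated fragments in all. The median level of the 39 was 0.88 ± 0.21 on the log2(FPKM + 1) scale (SD, n = 5 libraries), beside 0.59 ± 0.08 for all genes. Among paternally expressed genes 7 of 22 were on and 11 were low, with a median of 0.56 ± 0.11. Among maternally expressed genes 7 of 16 were on and 6 were low, with a median of 1.43 ± 0.29. For several maternal genes that were on, imprinting is known only elsewhere: Tssc4 and Osbpl5 in placenta, and Ube3a in neurons. For Grb10 and Copg2 it depends on the tissue, and for the paternal Inpp5f on the transcript. These genes may thus be expressed from both copies in luminal cells. The SDs are over libraries and leave out the spread between genes. Gene means ran from 0.00296 to 9.11 FPKM for the paternal and from 0.0167 to 15.4 FPKM for the maternal genes. Among members with a mean of at least 1 FPKM, the medians were 2.28 (paternal) and 2.62 (maternal). These medians are descriptions and were not tested.

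**Figure D1:**
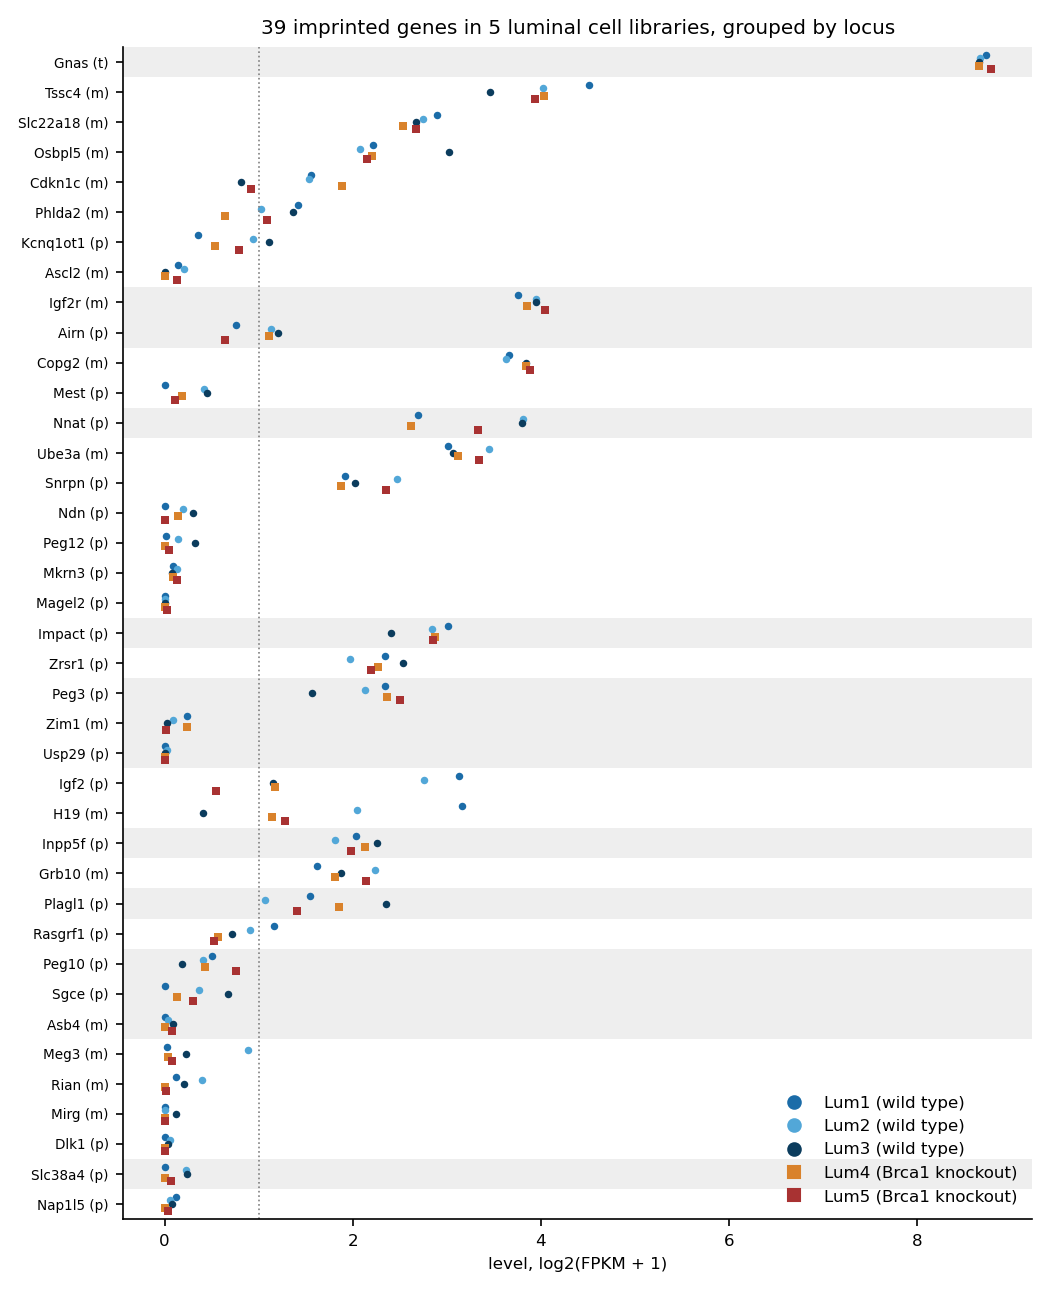
Levels of the 39 imprinted genes as log2(FPKM + 1) on the x axis, with genes on the y axis grouped by locus (alternating shading) and marked p for paternal, m for maternal and t for transcript-dependent expression. Each point is 1 library and the dotted line is 1 FPKM. Gnas stands far to the right, whereas the 4 genes of the Dlk1-Meg3 locus lie left of the line in all 5 libraries.

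Sequence entries help to place these levels, because promoters at imprinting control regions are rich in CpG and often carry TGCCGC, the hexamer that the zinc finger protein ZFP57 binds when methylated. RefSeq promoter windows (GRCm38.p6, 300 bases around the start, most of them before it) were at hand for 34 of the 39 genes, 52 windows in total. The hexamer on either strand (TGCCGC or GCGGCA) was in 12 of 52 windows (23.1%), against 11.6% of 32851 windows of all genes. At least 2 copies were in 3 windows, of Mest and Nap1l5, which is 5.77% against 1.53%. The Mest windows among them, chr6:30737800-30738099 and chr6:30737803-30738102, overlap almost fully and hold the same copies. The median window held 13 CpG, and 7 over all genes. The hexamer itself contains a CpG, and its shares were not adjusted for CpG content. By level, the hexamer was in 26.1% of the 23 windows of genes that were on and in 23.8% of the 21 windows of low genes. Windows of 1 gene can overlap and a match is only a match of letters.

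5 windows are shown, 5′ to 3′ on the strand of the gene, with the hexamer in capitals. Peg3 is shown because its window shares 263 bases with that of Usp29, Nnat and Plagl1 because they were on, and Mest and Nap1l5 because they hold 2 copies and were low.
Peg3 (chr7:6730370-6730669, minus strand): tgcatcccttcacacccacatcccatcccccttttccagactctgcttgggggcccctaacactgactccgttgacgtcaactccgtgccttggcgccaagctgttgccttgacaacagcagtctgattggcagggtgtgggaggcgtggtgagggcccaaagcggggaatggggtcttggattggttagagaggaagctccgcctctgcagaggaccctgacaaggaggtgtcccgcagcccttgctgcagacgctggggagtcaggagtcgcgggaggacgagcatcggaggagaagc
Nnat (chr2:157559828-157560127, plus strand): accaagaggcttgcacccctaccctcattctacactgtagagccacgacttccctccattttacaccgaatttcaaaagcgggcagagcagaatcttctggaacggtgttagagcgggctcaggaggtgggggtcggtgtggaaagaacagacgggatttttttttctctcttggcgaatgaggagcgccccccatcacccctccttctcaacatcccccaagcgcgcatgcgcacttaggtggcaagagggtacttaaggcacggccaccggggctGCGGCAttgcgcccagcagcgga
Plagl1 (chr10:13090582-13090881, plus strand): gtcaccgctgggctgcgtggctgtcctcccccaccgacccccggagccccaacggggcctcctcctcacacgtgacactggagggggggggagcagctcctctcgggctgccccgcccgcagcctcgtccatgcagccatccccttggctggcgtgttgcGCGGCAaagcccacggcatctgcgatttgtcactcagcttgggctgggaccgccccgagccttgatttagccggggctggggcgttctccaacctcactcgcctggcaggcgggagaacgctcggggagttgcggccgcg
Mest (chr6:30737800-30738099, plus strand): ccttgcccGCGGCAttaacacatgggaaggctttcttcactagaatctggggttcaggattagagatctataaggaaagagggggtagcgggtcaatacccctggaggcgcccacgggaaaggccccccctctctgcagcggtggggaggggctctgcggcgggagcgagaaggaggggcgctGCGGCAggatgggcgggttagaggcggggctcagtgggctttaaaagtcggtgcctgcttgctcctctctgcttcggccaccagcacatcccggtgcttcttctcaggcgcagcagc
Nap1l5 (chr6:58907077-58907376, minus strand): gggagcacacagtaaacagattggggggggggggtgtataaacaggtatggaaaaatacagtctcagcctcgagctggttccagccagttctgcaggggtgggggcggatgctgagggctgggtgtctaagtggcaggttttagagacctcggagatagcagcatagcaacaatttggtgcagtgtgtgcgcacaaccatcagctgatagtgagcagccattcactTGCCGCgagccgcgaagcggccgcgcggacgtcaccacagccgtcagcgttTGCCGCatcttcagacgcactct
The Peg3 window has 13 CpG and no copy of the hexamer. Nnat and Plagl1 have 17 and 26 CpG and 1 copy each. Mest and Nap1l5 have 17 CpG each. Over all windows of members, the median was 16 CpG and 61.3% GC for genes that were on and 10 CpG and 53.0% GC for low genes, a difference that was not tested.

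Gnas was the highest imprinted gene by a wide margin. It encodes the stimulatory G protein alpha subunit that links hormone receptors to adenylyl cyclase, and its locus also makes transcripts that are expressed from 1 parental copy. Its level was 425, 408 and 405 FPKM in Lum1, Lum2 and Lum3 and 405 and 440 FPKM in Lum4 and Lum5. The libraries lay within 1.09 times of each other and the labels overlap. The log2 fold change (libraries labelled Brca1 knockout minus those labelled wild type) was 0.03 (SE 0.18, limma adjusted p = 0.989). The table has 1 value for all Gnas transcripts. The antisense transcript Nespas, which overlaps it, was at 0.0732 FPKM at most.

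Igf2 and H19 share a control region and enhancers at the distal end of chromosome 7, where Igf2, a fetal growth factor, is paternal and H19, a non-coding RNA, is maternal. Igf2 was at 7.77, 5.76 and 1.22 FPKM in Lum1, Lum2 and Lum3 and at 1.26 and 0.457 FPKM in Lum4 and Lum5. H19 was at 7.97, 3.14 and 0.323 FPKM in Lum1, Lum2 and Lum3, and 1.21 and 1.43 FPKM in Lum4 and Lum5. Both were highest in Lum1 and next in Lum2, and for both the labels overlap through Lum3. The basal markers given above were, in sum and median, highest in Lum2 and next in Lum1, and their part in this was not tested. Igf2 spanned 17 times from lowest to highest library and H19 24.7 times, far wider than Gnas.

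For Igf2 the log2 fold change was -1.49 (SE 0.64, limma adjusted p = 0.924). Without Lum3 it was -2.09 (SE 0.30), which did not pass adjustment over all genes either (limma adjusted p = 0.675). For H19 it was -0.66 (SE 0.80, limma adjusted p = 0.928), and -1.39 (SE 0.43, limma adjusted p = 0.675) without Lum3. The H19 difference depended on Lum1, without which it was -0.01. The paired genes did not keep a fixed proportion, since Igf2 divided by H19 was 0.975, 1.84, 3.77, 1.04 and 0.320 in Lum1 to Lum5. Lum3 had the most Igf2 for its H19 and Lum5 the least.

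Among 9 listed partner genes, most of them linked to IGF2 or its RNA, 3 were on in every library. The 3 low ones were the RNA-binding protein genes Igf2bp1 and Igf2bp3 and the relaxin family gene Insl3. Igfbp5, an IGF binding protein, was at 109, 103, 398, 152 and 176 FPKM in Lum1 to Lum5. The IGF1 receptor gene Igf1r, through which IGF2 signals, was at 1.63, 2.0, 4.19, 2.60 and 1.85 FPKM, and the insulin receptor gene Insr at 3.73, 4.50, 6.43, 4.13 and 5.97 FPKM. Lum3 was highest for these 3, and the labels overlap. The binding protein gene Igfbp4 was instead high in Lum2 and Lum3, at 7.20 and 4.39 FPKM, against 0.482 to 0.558 in the others. Igfbp2, a further binding protein, was at 2.26 and 3.8 FPKM in Lum1 and Lum2 and at 0.264 to 0.272 FPKM in the rest.

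Igf2r and Airn lie on chromosome 17. Igf2r encodes the receptor that takes up and clears IGF2 and is maternal, and Airn is the paternal antisense RNA that silences the paternal Igf2r copy. Igf2r was at 12.5, 14.5 and 14.4 FPKM in Lum1, Lum2 and Lum3 and at 13.5 and 15.5 FPKM in Lum4 and Lum5. Airn was at 0.691, 1.19 and 1.31 FPKM in Lum1, Lum2 and Lum3, and 1.16 and 0.562 FPKM in Lum4 and Lum5. For both genes the labels overlap. Igf2r was 11.0 to 27.6 times as high as Airn and varied least of the pair, with a log2 fold change of 0.07 (SE 0.18, limma adjusted p = 0.969). The genes overlap over 28354 bases on opposite strands and the library kit does not mark strand, so reads from that stretch cannot be told apart. The neighbouring organic cation transporter gene Slc22a3, silenced by Airn in placenta, was at 1.46, 0.919 and 0.708 FPKM in Lum1 to Lum3 and at 5.63 and 2.21 FPKM in Lum4 and Lum5. Its labels do not overlap, and it is named for that reason. Of the 23 other imprinted genes on the list with a mean of at least 1 FPKM, 5 (21.7%) were higher in both Lum4 and Lum5 than in Lum1 to Lum3, and 3 (13%) lower, beside 17.5% and 5.77% of all genes tested.

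**Figure D2:**
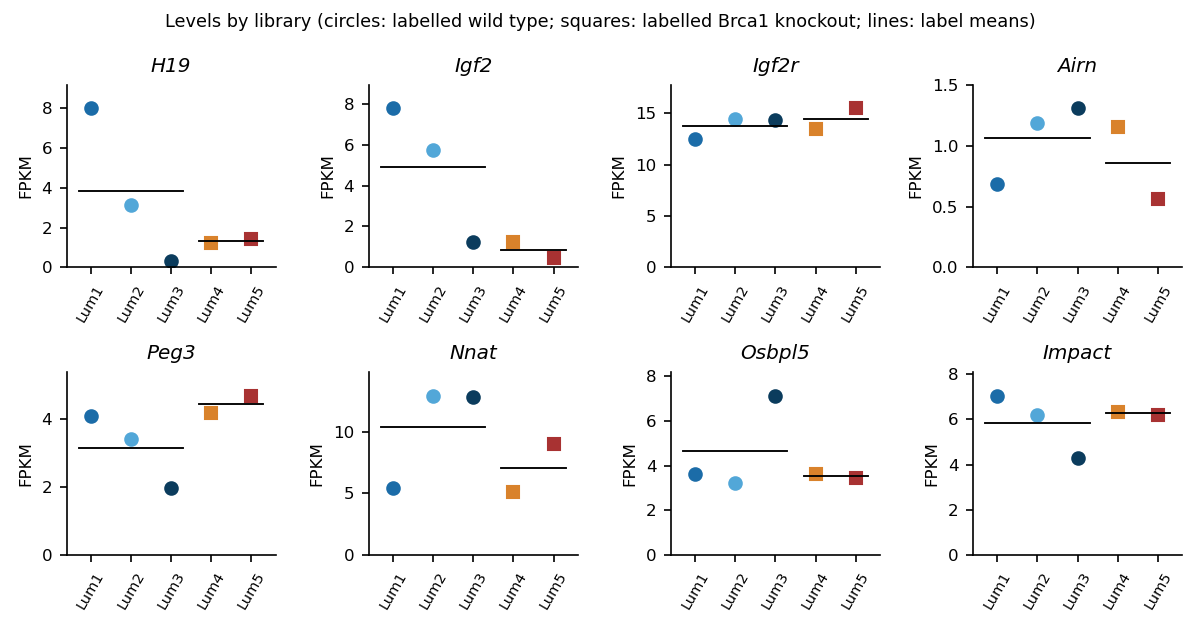
FPKM (y axes, each from 0) of 8 imprinted genes in the 5 libraries (x axes), with circles for libraries labelled wild type, squares for those labelled Brca1 knockout and black lines for label means. Igf2 and H19 are highest in Lum1, Igf2r is flat at 12.5 to 15.5 FPKM, and Lum3 is the highest library for Osbpl5 at 7.14 and the lowest for Peg3 and Impact.

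Peg3 and Usp29 are paternal genes read in opposite directions from the shared stretch printed above, and only Peg3 was on. Peg3, a zinc finger protein linked to growth and maternal behaviour, was at 4.07, 3.39 and 1.97 FPKM in Lum1, Lum2 and Lum3 and at 4.16 and 4.68 FPKM in Lum4 and Lum5. Its labels do not overlap, the libraries labelled Brca1 knockout being higher, though Lum4 exceeds Lum1 by little. The log2 fold change was 0.42 (SE 0.29, limma adjusted p = 0.924), and 0.20 (SE 0.16) without Lum3. Usp29, a ubiquitin protease gene, was at 0.0199 FPKM in Lum2, its highest library, and Zim1, a maternal zinc finger gene beside them, was at 0.182, 0.0656 and 0.0186 FPKM in Lum1 to Lum3 and at 0.180 and 0.0133 FPKM in Lum4 and Lum5. By the estimated depth, Usp29 rested on about 2.77 fragments in all 5 libraries together.

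Along 1273 kb of distal chromosome 7, from H19 to Dhcr7, 18 genes of the locus map were compared, of which 9 are members. The genes of the Kcnq1 domain are mostly maternal and are silenced on the paternal copy by Kcnq1ot1, a long antisense RNA. Silent genes lay among active ones. Ins2, Th and Trpm5 were listed at 0 in every library, and the placental transcription factor gene Ascl2 was at 0.106, 0.152 and 0 FPKM in Lum1 to Lum3 and at 0 and 0.0931 in Lum4 and Lum5. Between them lay Cd81, a tetraspanin, at 138 to 230 FPKM.

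Tssc4, named for its place in a tumor suppressing region, was the highest member of the Kcnq1 domain, at 21.9, 15.3 and 10 FPKM in Lum1, Lum2 and Lum3 and at 15.4 and 14.3 FPKM in Lum4 and Lum5. It lies within Trpm5 on the opposite strand, a gene listed at 0. Slc22a18, a membrane transporter, was at 6.44, 5.71 and 5.39 FPKM and at 4.79 and 5.40 FPKM in the same order. Both genes were highest in Lum1, and their labels overlap. Nap1l4, a histone chaperone beside Phlda2, was at 28.2 to 35.3 FPKM.

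Growth-limiting genes of the domain were expressed at low levels. Cdkn1c, the p57 inhibitor of cyclin-dependent kinases, was at 1.94, 1.90 and 0.760 FPKM in Lum1 to Lum3 and at 2.71 and 0.887 in Lum4 and Lum5. Phlda2, which limits placental growth, was at 1.67, 1.04 and 1.58 FPKM and at 0.556 and 1.13 FPKM in the same order. The labels overlap for both, with log2 fold changes of 0.10 (SE 0.42, limma adjusted p = 0.979) for Cdkn1c and -0.41 (SE 0.30, limma adjusted p = 0.924) for Phlda2. The silencing RNA Kcnq1ot1 was at 0.280, 0.915 and 1.16 FPKM in Lum1 to Lum3 and at 0.453 and 0.730 FPKM in Lum4 and Lum5. It was lowest in the shallowest libraries, Lum1 and Lum4, at about 161 and 268 estimated fragments, and a part of depth was not tested. Kcnq1 itself, which Kcnq1ot1 overlaps on the other strand, was at 0.315 to 1.17 FPKM.

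Osbpl5, an oxysterol-binding lipid transfer protein at the far end of the domain, was at 3.63, 3.22 and 7.14 FPKM in Lum1, Lum2 and Lum3 and at 3.6 and 3.45 FPKM in Lum4 and Lum5. Lum3 was the highest, and the other 4 libraries lay between 3.22 and 3.63. Its log2 fold change was -0.26 (SE 0.34, limma adjusted p = 0.928), and 0.03 (SE 0.15) without Lum3. The mature luminal and milk gene sums given above also set Lum3 apart, and their part in this was not tested.

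**Figure D3:**
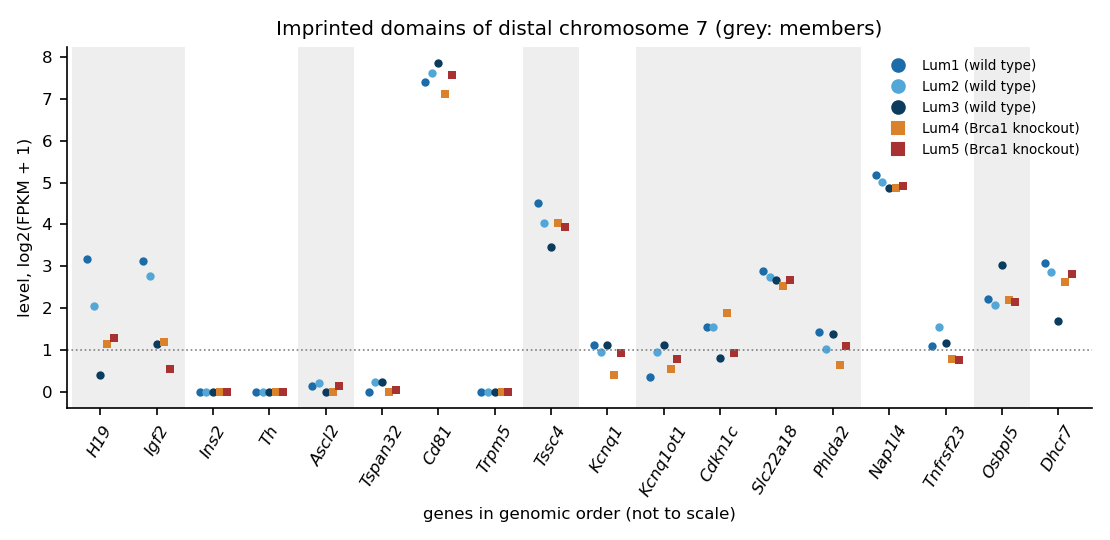
Levels as log2(FPKM + 1) on the y axis for the 18 genes of the imprinted domains of distal chromosome 7, in genomic order on the x axis, with members shaded and 1 point per library. Ins2, Th and Trpm5 lie at 0 in all 5 libraries, Cd81 is the highest at 138 to 230 FPKM, and H19 and Igf2 spread most.

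The Dlk1-Meg3 locus on chromosome 12 was low as a whole, with 4 of 4 genes under 1 FPKM in every library. Dlk1, a paternal membrane protein that holds back adipocyte differentiation, was above 0 only in Lum2 at 0.0375 and Lum3 at 0.0239 FPKM. The maternal non-coding RNA Meg3 was at 0.0155, 0.854 and 0.172 FPKM in Lum1 to Lum3 and at 0.0275 and 0.0547 FPKM in Lum4 and Lum5. Rian, a maternal RNA that carries small nucleolar RNAs, was at 0.0888, 0.321 and 0.155 FPKM and at 0 and 0.0130 FPKM in the same order. Mirg, which carries a large microRNA cluster, was above 0 only in Lum3 at 0.0834 FPKM. The highest library was Lum2 or Lum3 for each of the 4 genes. Over all genes above 0 with a mean under 1 FPKM, 58.0% were highest in those same libraries. They also had the most fibroblast markers, 115 and 96.1 FPKM in sum against at most 13.3, and the most endothelial markers, 11.9 and 24.9 against at most 3.09. Immune markers other than Cd74 summed to 266 and 54.2 FPKM in Lum2 and Lum3 against at most 8.24. With Cd74 included, the immune sum of Lum5, 473, exceeded that of Lum3, 259. The part of these markers in the result was not tested.

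Members host 22 microRNA hairpins annotated by RefSeq, of which 14 are in Mirg, 3 in Rian and 1 each in H19, Igf2, Usp29, Meg3 and Mest. All 22 have rows in the table and were listed at 0 in every library, as were 1005 of the 1159 microRNA rows, since libraries of this kind do not capture mature microRNAs. Their host transcripts are therefore the only readout. The mature sequences of the microRNAs in H19, Igf2 and Mest are shown because those hosts were detected at unlike levels, and the last pair because they were the only ones of the hosted arms to share a seed. Capitals mark the seed, bases 2 to 8, and sequences are from RefSeq (GRCm38.p6).
mmu-miR-675-5p (in H19, chr7:142577112-142577133, minus strand): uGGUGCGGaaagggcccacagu
mmu-miR-675-3p (in H19, chr7:142577078-142577099, minus strand): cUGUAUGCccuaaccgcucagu
mmu-miR-483-5p (in Igf2, chr7:142654968-142654989, minus strand): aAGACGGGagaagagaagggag
mmu-miR-483-3p (in Igf2, chr7:142654932-142654952, minus strand): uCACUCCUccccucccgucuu
mmu-miR-335-5p (in Mest, chr6:30741314-30741336, plus strand): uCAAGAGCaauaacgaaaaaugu
mmu-miR-335-3p (in Mest, chr6:30741354-30741375, plus strand): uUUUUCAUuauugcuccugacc
mmu-miR-453 (in Mirg, chr12:109735669-109735692, plus strand): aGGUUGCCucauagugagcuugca
mmu-miR-496a-5p (in Mirg, chr12:109739132-109739152, plus strand): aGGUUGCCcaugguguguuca
The host of miR-675, H19, reached 7.97 FPKM, and that of miR-483, Igf2, reached 7.77 FPKM, both in Lum1. Mest, host of miR-335, reached 0.364 FPKM. Both miRNAs with the seed GGUUGCC lie in Mirg.

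Mest and Copg2 lie tail to tail on chromosome 6 and differed widely. Copg2, a subunit of the coat of Golgi vesicles, was at 11.7, 11.4 and 13.4 FPKM in Lum1, Lum2 and Lum3 and at 13.3 and 13.8 FPKM in Lum4 and Lum5. Mest, a paternal hydrolase-like gene of embryonic mesoderm, was at 0, 0.335 and 0.364 FPKM in Lum1, Lum2 and Lum3, and 0.136 and 0.0803 FPKM in Lum4 and Lum5. Mest was highest in Lum2 and Lum3, as was the Dlk1-Meg3 locus. The genes overlap by 912 bases.

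At the Snrpn-Ube3a locus on chromosome 7, the counterpart of the Prader-Willi and Angelman region, Snrpn and Ube3a were on and the 4 intronless paternal genes were near 0. Snrpn, a splicing protein gene that is paternal, was at 2.78, 4.54 and 3.08 FPKM in Lum1 to Lum3 and at 2.66 and 4.13 FPKM in Lum4 and Lum5. Ube3a, a ubiquitin ligase gene that is maternal mainly in neurons, was at 7.08, 9.95 and 7.36 FPKM and at 7.71 and 9.18 FPKM in the same order. For both genes the labels overlap, and the log2 fold changes were -0.02 (SE 0.28) and 0.06 (SE 0.22). Snrpn shares its transcripts with Snurf, so the split between those entries is uncertain.

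Ndn and Magel2, which encode related proteins needed in hypothalamic neurons, were near 0. Ndn was at 0.148 and 0.232 FPKM in Lum2 and Lum3, at 0.103 in Lum4 and at 0 in Lum1 and Lum5, and Magel2 was above 0 only in Lum5 at 0.0148. Mkrn3, a ring finger gene, was at 0.0523 to 0.0936 FPKM, about 1.01 to 5.09 estimated fragments a library. Peg12 was at 0.00866, 0.10 and 0.248 FPKM in Lum1 to Lum3 and at 0.00508 and 0.0297 FPKM in Lum4 and Lum5. Except for Mkrn3 and Magel2, these were again highest in Lum3.

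On proximal chromosome 6, the paternal genes Peg10 and Sgce start side by side and the maternal Asb4 lies beyond them, and 3 of 3 were low. Peg10, derived from a retrotransposon and needed in placenta, was at 0.418, 0.325 and 0.138 FPKM in Lum1 to Lum3 and at 0.345 and 0.688 FPKM in Lum4 and Lum5. Sgce, epsilon-sarcoglycan, was at 0, 0.287 and 0.594 FPKM and at 0.0994 and 0.234 FPKM in the same order. The neighbours had opposite extremes, with Peg10 lowest and Sgce highest in Lum3. Asb4 was at 0.0598 FPKM at most.

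Of the genes that stand alone and were on, Nnat had the largest SD of log2(FPKM + 1), 0.58, ahead of Plagl1 at 0.49, whereas Plagl1 spanned the wider fold, 3.74 times against 2.53. Nnat, or neuronatin, is a small membrane protein gene of brain and endocrine cells, and was at 5.46, 13 and 12.9 FPKM in Lum1, Lum2 and Lum3 and at 5.14 and 9.05 FPKM in Lum4 and Lum5. Lum1 and Lum4 were low and Lum2 and Lum3 high, so the labels overlap, and the log2 fold change was -0.46 (SE 0.44, limma adjusted p = 0.924). Nnat lies inside Blcap on the opposite strand. Blcap was at 28.6 to 39.4 FPKM, and Nnat divided by Blcap was 0.168, 0.330, 0.428, 0.145 and 0.316 in Lum1 to Lum5. Of 8 neuronal and glial markers, 7 were under 1 FPKM in every library, and Mbp was at 9.38 to 20.4 FPKM. Fibroblast markers were also highest in Lum2 and Lum3, at 115 and 96.1 FPKM in sum. The part of other cells in the Nnat levels was not tested.

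Plagl1, a paternal zinc finger gene that restrains proliferation, was at 1.93, 1.10 and 4.12 FPKM in Lum1 to Lum3 and at 2.62 and 1.65 FPKM in Lum4 and Lum5. Lum3 was highest, as it was for Osbpl5, and proliferation markers were lowest there at 60.1 FPKM in sum. The cyclin-dependent kinase inhibitor gene Cdkn1c was instead lowest in Lum3, at 0.760 FPKM, and a link to proliferation was not tested. Impact, a paternal regulator of translation under stress, was at 7.06, 6.19 and 4.31 FPKM and at 6.35 and 6.22 FPKM in the same order, with Lum3 lowest. Zrsr1, a splicing factor gene within Commd1, was at 4.06, 2.93 and 4.80 FPKM and at 3.81 and 3.57 FPKM. Its parent copy Zrsr2 is similar in sequence, so reads could be shared, and labels overlap for all 3 genes.

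Grb10, an adaptor that dampens insulin and IGF1 receptor signalling, was at 2.07, 3.73 and 2.68 FPKM in Lum1 to Lum3 and at 2.52 and 3.40 FPKM in Lum4 and Lum5. Inpp5f, a phosphoinositide phosphatase gene with a paternal variant transcript, was at 3.11, 2.51 and 3.79 FPKM and at 3.37 and 2.96 FPKM. Neither separated the labels, with log2 fold changes of 0.06 (SE 0.28) for Grb10 and 0.02 (SE 0.23) for Inpp5f. Rasgrf1, a paternal exchange factor for Ras, was at 1.24, 0.872 and 0.645 FPKM and at 0.479 and 0.439 FPKM, with Lum4 and Lum5 both below the other 3. Slc38a4, an amino acid transporter of liver and placenta, was at 0, 0.174 and 0.181 FPKM and at 0 and 0.0472 FPKM, again highest in Lum2 and Lum3. Nap1l5, an intronless gene within Herc3, was at 0.0885, 0.0424 and 0.0543 FPKM and at 0 and 0.0259 FPKM, and its labels do not overlap.

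Between the labels, none of the 19 members with a mean of at least 1 FPKM passed an adjusted p of 0.05 in limma, and 0.0% of the 11481 genes tested did. Without adjustment, 372 of those 11481 genes and 0 of the 19 members had a p under 0.05. The 19 had a median log2 fold change of -0.02, with 10 below 0 and 9 above it, beside 0.11 over all genes tested. Apart from Igf2, H19, Peg3 and Nnat, the other 15 lay between -0.41 and 0.15. Median-of-ratios scaling moved the median of all genes to 0.01 and that of the members to -0.11. Without Lum3 the medians were 0.03 for all genes and 0.0 for the members, and the difference was not tested.

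Peg3 was the 1 member of those 19 whose libraries labelled Brca1 knockout were both above all those labelled wild type, where 17.5% of the genes tested were so placed, and 0 of 19 were below, against 5.77%. Of the 20 members with a mean under 1 FPKM, 3 (Rian, Nap1l5 and Rasgrf1) had Lum4 and Lum5 both below Lum1 to Lum3, against 8.04% of the 7871 genes above 0 with a mean under 1 FPKM. Nap1l5 rested on about 6.09 estimated fragments in all, and Rian was highest in Lum2 and Lum3, the libraries with most fibroblast and endothelial markers. Rasgrf1 was the only one of the 3 with more than 100 estimated fragments, about 243.

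The libraries also differed in how many members they raised or lowered. Of the 20 with a mean under 1 FPKM, 14 (70.0%) were highest in Lum2 or Lum3, beside 58.0% of all genes of that class. The number of members above 0 was 30, 37, 37, 30 and 36 in Lum1 to Lum5, lowest in the shallowest libraries. Of the 19 tested members, 5 (26.3%) were lowest in Lum3, beside 51.9% of all genes tested.

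**Figure D4:**
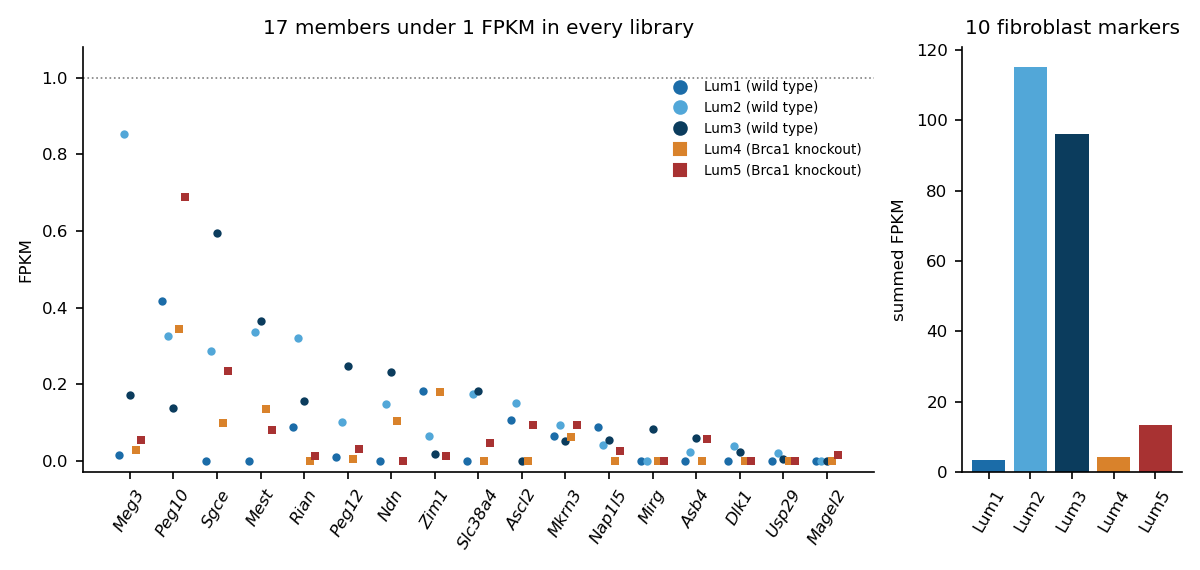
Left, FPKM (y axis) of the 17 imprinted genes under 1 FPKM (dotted line) in every library, with 1 point per library. Right, summed FPKM of 10 fibroblast markers by library, which reaches 115 in Lum2 and 96.1 in Lum3 and 13.3 at most elsewhere. Meg3 is highest in Lum2 at 0.854 FPKM and Sgce in Lum3 at 0.594 FPKM, whereas Peg10 is highest in Lum5.

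Other imprinted genes of the mouse were divided in a like way. Of 52 listed genes 50 were measured, of which 16 (32.0%) were on in every library and 24 (48.0%) were low, among them 6 at 0 throughout. The highest after Cd81 were Ctsh, a lysosomal protease, at 69.4 to 109 FPKM, H13, a signal peptide peptidase, at 37.3 to 49.2, Commd1, which hosts Zrsr1, at 25.5 to 45.0, and Blcap, which hosts Nnat, at 28.6 to 39.4. The gene list of proteins that keep or set imprints was mostly on, 16 of 22 genes, with 4 low. Trim28, the co-repressor recruited to imprints, was at 53.5 to 80.6 FPKM, the maintenance methyltransferase gene Dnmt1 at 30.3 to 36.4, and the insulator protein gene Ctcf at 13 to 18. Yy1, a zinc finger protein, was at 33.0 to 40 FPKM and Atrx, a chromatin remodeller, at 15.8 to 23.6 FPKM. Zfp57, named after its values were seen because the hexamer is its site, was under 1 FPKM throughout, at 0.656 at most, whereas Zfp445, a related protein named with it, was at 6.51 to 9.57 FPKM.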

How the data were processed

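RNA-seq of 5 libraries of sorted luminal cells was analysed. Per the labels and methods, the authors made libraries with the NEBNext Ultra kit, trimmed reads with Trimmomatic 0.35, aligned them to mm10 with TopHat2 (2.0.13 in the submitters' processing notes, another version in the methods) and deposited FPKM from Cufflinks 2.2.1. The gene annotation is not given in the sources used here. The label protocol speaks of mammary tumors although the libraries are named luminal cells. The deposited table has 24346 rows, and 27 with a date in place of a gene name were left out.

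Members and lists were chosen with earlier results of these data known. All 39 members are named, grouped by locus. Of the other imprinted genes, the imprint maintenance genes and the genes linked to IGF2, the rule named those that had a mean of at least 1 FPKM and either 1 of the 5 highest means or labels that did not overlap with a difference of at least 1 (log2). Named beyond that rule, after their values were seen, were genes that overlap or lie beside members (Nespas, Ins2, Th, Trpm5, Kcnq1, Nap1l4, Dhcr7). So were Zfp57 and Zfp445, the low partner genes, and the marker genes Cd74, Lalba, Btn1a1 and Mbp. Other marker genes are given as sums or medians.

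Values were taken as log2(FPKM + 1), which understates changes of low genes. The labels were compared with limma 3.58.1 (R 4.3.3, eBayes with a trend) in 11481 genes that averaged 1 FPKM or more, with Benjamini-Hochberg adjustment over all of them, at a threshold of 0.05. Levels are mean ± SD over libraries. On simulated libraries of this layout of 11481 genes, limma found 100% of 200 altered genes (log2 change of 2) where the SD was 0.2, and 82% where it was 0.5. Larger SDs were not simulated. Igf2 and H19 had SDs of 1.13 and 1.05 over the 5 libraries, so these shares do not apply to them.

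Sequencing depth was inferred from how low values were spaced in single-transcript genes of at least 3000 bases. Only 53.1% to 61.1% of values lay within 0.15 of a whole multiple. Chance gives 30% for a spacing set in advance, but the spacing was fitted to these same values, so chance gives more. No counts were recovered, and fragment numbers are approximate. Alternatives were another pseudocount, filter, limit, scaling or eBayes setting, and each replicate left out. Gene models are those of GENCODE M21 (GRCm38, which is mm10), and sequences are from RefSeq (GRCm38.p6). Python 3.11.15, numpy 2.4.6 and pandas 2.3.3 were used.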

Additional observations from a re-analysis of the deposited data

Results flagged for a closer look

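Of 42 results examined, 6 had 1 of the 5 libraries so far from the others that its gap to the nearest, divided by the whole range, exceeded 0.71. Chance gives about 1 in 20 such results where values are well above 0. That share does not hold for Mirg and Magel2, which have a gap over range of 1.0 because 1 library alone was above 0, nor for Usp29 at about 2.77 estimated fragments in all. Lum3 was highest for Osbpl5 (gap over range 0.857, 7.14 FPKM against 3.22 to 3.63) and lowest for Impact (0.726, 4.31 FPKM against 6.19 to 7.06). Mirg was above 0 only in Lum3 (1.0, 0.0834 FPKM, about 9.67 estimated fragments). Lum2 was highest for Meg3 (0.761, 0.854 FPKM against 0.172 at most) and for Usp29 (0.829, 0.0199 FPKM, about 1.95 estimated fragments). Magel2 was above 0 only in Lum5 (1.0, 0.0148 FPKM, about 1.46 estimated fragments).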

How the results depend on the processing

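No member was called between the labels under any of the 11 alternatives run. Over all genes, 0 were called, and leaving out 1 library gave 0 to 18 (2 without Lum1, 18 without Lum4 and 4 without Lum5). Without Lum4 or Lum5, 1 library labelled Brca1 knockout is left and is assumed to vary like those labelled wild type. The number of members whose labels do not overlap was 4 (10.3%, against 19.9% of all genes above 0), and 8 to 17 with 1 library left out, where fewer libraries have to be separated. It was 17 (43.6%) without Lum1, 8 (20.5%) without Lum2, 9 (23.1%) without Lum3, 13 (33.3%) without Lum4 and 11 (28.2%) without Lum5, against 41.5%, 28.3%, 32.6%, 37.8% and 38.7% of all genes. With a pseudocount of 0.1 the median level was -0.11 for the 39 members, -0.83 for the paternal and 0.81 for the maternal genes, which shows the scale. Restricted to members with a mean of at least 1 FPKM it was 2.44, 2.28 and 2.62. The fold changes of Igf2, H19, Peg3 and Nnat kept their sign in all 9 alternatives, from -2.18 to -1.09, -1.39 to -0.01, 0.20 to 0.58 and -0.83 to -0.10. Counts of genes that were on or low stayed within 1.5 times of 15 and 17 (13 to 18 and 14 to 21), also without Lum2 and Lum3, a setting chosen after seeing the data. Median-of-ratios scaling shifted Lum3 by 0.21 (log2) and the others by -0.09 to -0.03. No paired analysis was possible because the labels share no replicate numbers. With 3 libraries against 2 and unknown read totals, genes at a few fragments cannot be ranked between libraries.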
